A study of Mus musculus with 41 samples.

Results

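A set of 10 genes that mark lymphatic vessels and the vessels of lymph nodes was followed through 41 mouse mammary tumors, out of 47480 genes in the expression table. They are the lymphatic endothelial genes Prox1, Flt4, Lyve1, Mmrn1, Pdpn and Reln, the homing genes Ccl21a and Madcam1, and the ligands Vegfc and Vegfd, the last listed under its older symbol Figf. The genes were taken by symbol, and they were selected on their measured values in the tumors PLK2null-732, PLK2null-733, PLK2null-743, PLK2null-7763 and p53null-T11, so the values in those 5 named tumors are given as a description with no test. Tests used the other 36 tumors.

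All tumors grew untreated in the mammary fat pad of syngeneic Balb/c mice, and all lacked the tumor suppressor p53. In 28 tumors the kinase gene Plk2 was deleted as well (Plk2-/-; p53-/-, called Plk2-null below), and 13 tumors were p53-/- with intact Plk2. Both deletions were carried by the transplanted mammary epithelial cells, while the recipients were wild type. Whether the vessel and blood cell RNA of a tumor came from recipient or transplanted cells was not tested. The age of the mice was not given in the sources used here. Each tumor gave 1 RNA-seq library, and the tumors were serially passaged, so some Plk2-null libraries may stem from 1 primary tumor. The study names PLK2null-743 and p53null-T11 as claudin-low, a tumor type with low levels of cell junction genes. PLK2null-732 and PLK2null-733 were put in this class from the tumor names marked in its clustering plot, where PLK2null-7763 is not marked so.

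Lymphatic vessels drain fluid and immune cells from tissue. Their endothelial cells arise from venous endothelium, where SOX18 and NR2F2 (COUP-TFII) switch on Prox1, the transcription factor that sets lymphatic identity. The receptor VEGFR-3, encoded by Flt4, then receives VEGF-C and VEGF-D and directs sprouting and growth. In lymph nodes, CCL21 draws lymphocytes and dendritic cells that carry CCR7, and MAdCAM-1 is an adhesion molecule bound by the lymphocyte integrin alpha4 beta7.

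Values are upper-quartile normalized, on a linear scale on which 1000 is the upper quartile of the nonzero genes of each tumor. A single read was worth 0.388 to 0.817 on this scale, at an implied depth of 29409598 to 70868089 fragments per tumor. Plk2 itself read 36.6 to 553 in the Plk2-null tumors, with a median of 284, and 186 to 8028 in the p53-/- tumors, with a median of 3402. The p53-/- library with the lowest Plk2 value is labelled p53null-7435, and it lies inside the Plk2-null range. The labelled tissue was checked against 6 epithelial genes (Epcam, Krt8, Krt18, Cdh1, Cldn3 and Cldn7), whose values summed to 34899 to 119162 in 24 Plk2-null tumors and 74293 to 295213 in 12 p53-/- tumors. The sum was 291 in PLK2null-732, 67.1 in PLK2null-733 and 45.7 in PLK2null-743, so defining epithelial markers were near 0 in these 3 libraries. It was 13539 in PLK2null-7763 and 33742 in p53null-T11.

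Lymphatic and lymph-node vessel genes stood far above the other Plk2-null tumors in PLK2null-732, PLK2null-733 and PLK2null-743, and less far in PLK2null-7763. In the first 3 tumors together, 5 of the 10 genes (Prox1, Flt4, Mmrn1, Ccl21a and Madcam1) were above all 25 other Plk2-null tumors. Over all genes with a mean of at least 10 the same was true of 1908 of 17153, or 11.1%, and 8.87% were below, where 0 of the 10 genes fell. With TMM rescaling 9.75% were below, and Pdpn was 1 of them. With PLK2null-7763 counted among the high tumors, 6 of the 10 genes, now with Lyve1, were above all 24 remaining Plk2-null tumors, beside 6.96% of all genes, and 0 were below, beside 2.72%. These tumors chose the genes, so the counts describe them and nothing is read from them. In bulk tumor RNA, more cells of a type and more RNA per cell cannot be told apart.

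**Figure D1:**
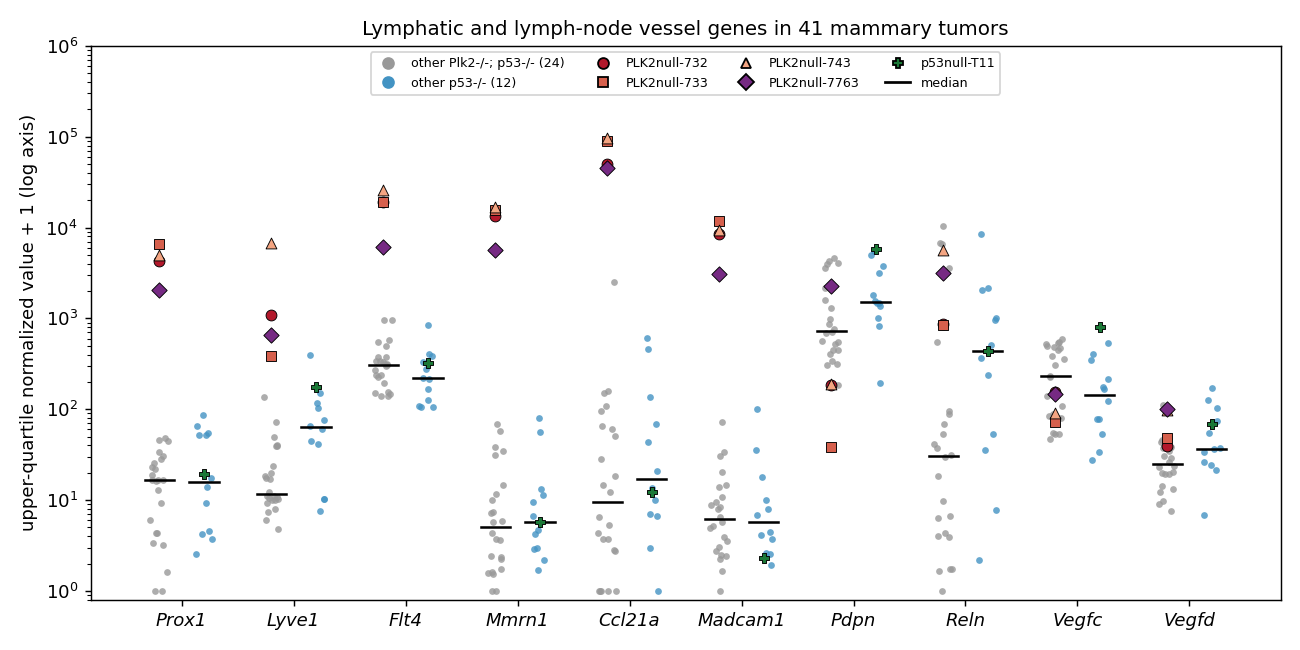
Value of each gene in all 41 tumors, as the upper-quartile normalized value plus 1 on a log axis. Small points are single tumors, grey for the 24 other Plk2-null and blue for the 12 other p53-/- tumors, bars are their medians, and large symbols are the 5 named tumors. PLK2null-732, PLK2null-733, PLK2null-743 and PLK2null-7763 lie above every other tumor for Prox1, Flt4, Mmrn1, Ccl21a and Madcam1, but not for Pdpn, Reln, Vegfc or Vegfd.

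Prox1, the master regulator of lymphatic identity, lies on the minus strand of chromosome 1 (chr1:190118035-190170714, mm10) in 5 exons. Its value was 4259 in PLK2null-732, 6637 in PLK2null-733, 5002 in PLK2null-743, 2055 in PLK2null-7763 and 18.2 in p53null-T11. The 24 other Plk2-null tumors ran from 0 to 46.7 with a median of 15.6, and 4 of them were at or under the value of 3 reads. The 12 other p53-/- tumors ran from 1.56 to 85.5 with a median of 14.6. The lowest of the 4 high tumors was thus 44.0-fold above the highest of the 24, whereas the claudin-low p53-/- tumor T11 sat among the ordinary p53-/- tumors. The antisense transcript Prox1os, which overlaps the start of Prox1, read at most 13.8 in any named tumor.

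Flt4, the receptor for VEGF-C and VEGF-D, lies on the plus strand of chromosome 11 (chr11:49609263-49652739, 30 exons). Its value was 19280 in PLK2null-732, 19204 in PLK2null-733, 25841 in PLK2null-743, 6166 in PLK2null-7763 and 324 in p53null-T11. The other 24 Plk2-null tumors ran from 140 to 954 with a median of 306.5, and the 12 p53-/- tumors from 105 to 850.0 with a median of 218.5. Unlike Prox1, Flt4 was therefore well detected in every tumor, and the gap between PLK2null-7763 and the highest of the 24 was 6.46-fold. Flt4 is also made by some blood vessel cells of tumors.

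Mmrn1 encodes multimerin-1, a secreted glycoprotein of platelets and endothelium that is a common lymphatic endothelial marker. It read 13404, 15472 and 16974 in PLK2null-732, PLK2null-733 and PLK2null-743, 5675 in PLK2null-7763 and 4.76 in p53null-T11. In the 24 other Plk2-null tumors it ran from 0 to 68.0, and 9 of these tumors were at or under the value of 3 reads. The 12 p53-/- tumors ran from 0.703 to 79.2. Mmrn1 had the widest gap of the 10 genes, with PLK2null-7763 83.4-fold above the highest of the 24.

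Lyve1, the hyaluronan receptor of lymphatic capillaries that is also carried by some macrophages, was less uniform. It read 1084 in PLK2null-732, 386 in PLK2null-733, 6799 in PLK2null-743, 663 in PLK2null-7763 and 176 in p53null-T11. The 24 other Plk2-null tumors ran from 3.75 to 134 with a median of 10.7, and the 12 p53-/- tumors from 6.54 to 393 with a median of 62.1. PLK2null-743 stood apart from the other high tumors, and the value of PLK2null-733 was below that of 1 p53-/- tumor, p53null-10151. p53null-T11 was second of the 13 p53-/- tumors.

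Ccl21a encodes CCL21, made by lymphatic endothelium, high endothelial venules and reticular cells. It was the most abundant of the 10 genes in the 4 high Plk2-null tumors, also per length. It read 49637 in PLK2null-732, 89673 in PLK2null-733, 98005 in PLK2null-743, 45781 in PLK2null-7763 and 11.2 in p53null-T11. In the other 24 Plk2-null tumors the median was 8.44, 5 were at or under the value of 3 reads, and the highest, PLK2null-1981, reached 2503. The 12 p53-/- tumors ran from 0 to 600 with a median of 16.1. Near-identical copies of this gene lie on the same chromosome. The copies Gm13304 and Gm21541 held together little beside it, 0.0197 and 0.0421% of the Ccl21a total of the 4 high tumors, and Ccl21b and Gm10591 were listed at 0 there, but how the quantification split reads among the copies is uncertain.

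Madcam1 read 8408 in PLK2null-732, 11672 in PLK2null-733, 9326 in PLK2null-743, 3085 in PLK2null-7763 and 1.30 in p53null-T11. The other 24 Plk2-null tumors ran from 0 to 71.4 with a median of 5.13, and the 12 p53-/- tumors from 0.924 to 100.4 with a median of 4.67. The 2 homing genes were thus low together in p53null-T11 and high together in the 4 Plk2-null tumors.

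The promoters of these 2 homing genes and of Mmrn1, are printed because the 3 genes stood high in the same tumors and their windows held one of the motifs searched. Each covers 250 bases before and 50 after the RefSeq start (GRCm38.p6, the assembly of mm10), 5′ to 3′ on the gene's strand. Capitals mark an ETS core (AGGAAG), a SOX core (ACAATG) or an NF-kB pattern (GGG and TTTCC with any 2 bases between them) on either strand. The windows are chr4:42773942-42774241 on the minus strand for Ccl21a, chr6:60944067-60944366 on the plus strand for Mmrn1 and chr10:79664309-79664608 on the plus strand for Madcam1.
Ccl21a: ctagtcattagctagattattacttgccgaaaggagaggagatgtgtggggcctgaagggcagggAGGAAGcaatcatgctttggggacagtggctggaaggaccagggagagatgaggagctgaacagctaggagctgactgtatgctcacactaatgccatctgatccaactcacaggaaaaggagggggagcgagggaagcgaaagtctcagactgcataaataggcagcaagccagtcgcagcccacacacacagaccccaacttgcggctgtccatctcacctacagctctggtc
Mmrn1: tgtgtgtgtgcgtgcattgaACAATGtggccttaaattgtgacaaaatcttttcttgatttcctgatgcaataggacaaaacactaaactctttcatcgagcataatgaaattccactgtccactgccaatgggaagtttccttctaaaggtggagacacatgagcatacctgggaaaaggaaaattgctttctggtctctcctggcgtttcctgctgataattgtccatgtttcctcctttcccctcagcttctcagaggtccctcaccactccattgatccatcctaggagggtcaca
Madcam1: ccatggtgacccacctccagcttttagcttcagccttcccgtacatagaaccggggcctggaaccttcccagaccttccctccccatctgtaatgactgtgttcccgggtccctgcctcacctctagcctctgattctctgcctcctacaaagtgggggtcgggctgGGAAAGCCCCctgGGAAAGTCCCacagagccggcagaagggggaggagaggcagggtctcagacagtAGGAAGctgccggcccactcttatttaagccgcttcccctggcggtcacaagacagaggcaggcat
The Ccl21a window held 1 ETS core, the Mmrn1 window 1 SOX core, and the Madcam1 window 1 ETS core and 2 NF-kB matches that did not overlap each other. Windows were found for 9 of the 10 genes, 10 windows in all, with none for Lyve1. An ETS core was in 2 of these 10 windows against 35.4% of all 32851 promoter windows, a SOX core in 1 against 12.6%, and an NF-kB match in 1 against 1.63%. The windows of Prox1, Flt4, Pdpn, Reln, Vegfc and Vegfd held none of these letters. The homing and Mmrn1 windows had 3 to 8 CG pairs, beside a median of 7 over all windows. The Pdpn window had 7 and the Vegfd window 2. The Prox1 windows had 25 and 14, the Flt4 window 26, the Vegfc window 35 and the Reln window 47. The number of CG pairs thus did not separate the genes high in the 4 tumors from the others.

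Pdpn, Reln and the ligands did not follow the other genes. Pdpn encodes podoplanin, a membrane glycoprotein of lymphatic endothelium that is shared with fibroblasts, basal cells and invading tumor cells. It read 181.9 in PLK2null-732, 37.1 in PLK2null-733 and 186 in PLK2null-743, ranks 26, 28 and 25 of the 28 Plk2-null tumors, and 2290 in PLK2null-7763. The other 24 Plk2-null tumors ran from 181.6 to 4663 with a median of 733.4. In p53null-T11 it read 5851, the highest of the 13 p53-/- tumors, whose other 12 ran from 192 to 5509. PLK2null-732, PLK2null-733 and PLK2null-743, the highest for Prox1, were thus among the lowest Plk2-null tumors for Pdpn. PLK2null-7763, also high for Prox1, ranked 7 of the 28 for Pdpn.

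Reln encodes reelin, a secreted glycoprotein of neurons, lymphatic endothelium and some epithelia. It read 874, 854 and 5682 in PLK2null-732, PLK2null-733 and PLK2null-743, 3193 in PLK2null-7763 and 441 in p53null-T11. These values fell inside the range of the other 24 Plk2-null tumors, which went from 0 to 10347 with a median of 29.6. The upper values came from PLK2null-1963 at 10347, PLK2null-1964 at 6823, PLK2null-1965 at 6621 and PLK2null-7747 at 3625. The 12 p53-/- tumors ran from 1.17 to 8603 with a median of 437. In the 4 Plk2-null tumors just named, Krt5, a keratin of basal cells, read 8000 to 36680, and in PLK2null-7763 it read 6097. It read 102 in PLK2null-732, 19.8 in PLK2null-733 and 7.91 in PLK2null-743.

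Vegfc, the main ligand of VEGFR-3, read 152 in PLK2null-732, 71.3 in PLK2null-733, 89.8 in PLK2null-743 and 147 in PLK2null-7763. The other 24 Plk2-null tumors ran from 45.5 to 587 with a median of 228.5, so all 4 tumors lay below that median. p53null-T11 read 795, the highest of the p53-/- tumors, whose other 12 ran from 26.5 to 533 with a median of 143. Vegfd, the second ligand, read 38.7, 47.3 and 97.7 in PLK2null-732, PLK2null-733 and PLK2null-743, 99.2 in PLK2null-7763 and 68.0 in p53null-T11. It ran from 6.52 to 111.5 in the 24 and from 5.85 to 168 in the 12, so no named tumor left the range of the others. Receptor and ligand were therefore high in different tumors, Flt4 in the 4 Plk2-null tumors and Vegfc in p53null-T11.

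On the log2(value + 1) scale, the mean of PLK2null-732, PLK2null-733 and PLK2null-743 differed from the mean of the 25 other Plk2-null tumors by 12.10 for Ccl21a, 10.95 for Mmrn1, 10.17 for Madcam1 and 8.57 for Prox1. The difference was 6.20 for Lyve1, 5.97 for Flt4, 5.14 for Reln, 1.14 for Vegfd, -0.94 for Vegfc and -3.17 for Pdpn. The SD among the 3 tumors was 0.17 for Mmrn1, 0.32 for Prox1, 0.53 for Ccl21a and 2.09 for Lyve1 (n = 3). The median difference over all genes tested was 0.02. Of the genes with positive differences, Lyve1 and Reln thus varied most among the 3 tumors.

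Blood vessel genes were high in the same tumors. The 6 blood endothelial markers Pecam1, Cdh5, Kdr, Tie1, Esam and Emcn summed to 186496 in PLK2null-732, 176854 in PLK2null-733, 165585 in PLK2null-743 and 78025 in PLK2null-7763. The same sum was 2572 to 7743 in the other 24 Plk2-null tumors and 6876 in p53null-T11. In the first 3 tumors 6 of 6 markers were above the range of the 25, beside 11.1% of all genes. The same held for 6 of 6 pericyte and 5 of 5 red blood cell markers, with red blood cell sums of 94951 to 351792 in the 3 claudin-low tumors against 491 to 7100 in the 24. Of the 6 fibroblast markers, 0 were above the range. The part of these cell types in the values above was not tested.

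The lymphatic genes were compared with the endothelial cadherin gene Cdh5, using values divided by the length of the longest transcript in kilobases. Prox1 per kb over Cdh5 per kb was 0.0427 in PLK2null-732, 0.0749 in PLK2null-733, 0.0642 in PLK2null-743 and 0.0509 in PLK2null-7763. It was at most 0.0287 in the other 24 Plk2-null tumors, with a median of 0.00464, at most 0.0189 in the 12 p53-/- tumors and 0.00423 in p53null-T11. Mmrn1 over Cdh5 went further, at 0.237, 0.309, 0.385 and 0.248 in the 4 tumors against at most 0.0275 in the 24. Both genes were thus high in these tumors also relative to a gene of all endothelium.

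Flt4 relative to Kdr, which encodes VEGFR-2, gave another picture. This ratio per kb was 0.512, 0.428, 0.692 and 0.427 in the 4 tumors and 0.686 in p53null-T11, inside the range of 0.231 to 1.22 in the 24. Lyve1 over Cdh5 was 0.0297, 0.0119, 0.239 and 0.0449 in the 4 tumors and 0.112 in p53null-T11. Of the 4, PLK2null-743 alone exceeded the range of 0.00403 to 0.111 in the 24. In the 12 p53-/- tumors this ratio ran from 0.0124 to 0.342 with a median of 0.0494, so none of the 4 exceeded that range. Flt4 over Cdh5 was 0.244, 0.274, 0.42 and 0.193 in the 4 tumors and 0.0954 in p53null-T11, against a median of 0.136 and a highest value of 0.275 in the 24. All 4 tumors thus lay above that median, and PLK2null-743 above the range. Against the same denominator, Cdh5, Prox1 and Mmrn1 exceeded the 24 in all 4 tumors, and Flt4 and Lyve1 in PLK2null-743 alone.

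**Figure D2:**
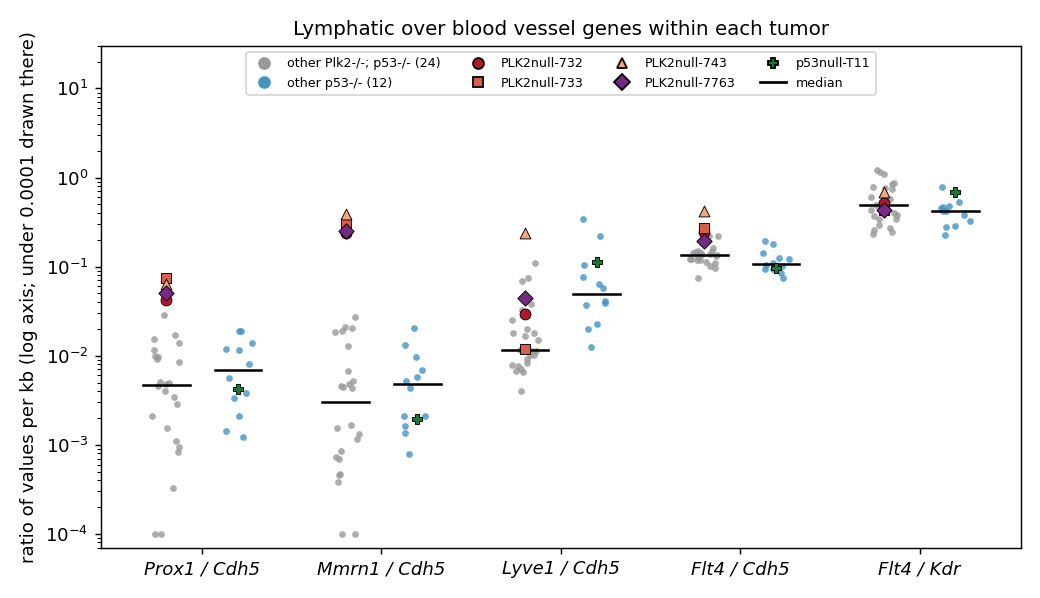
Ratio of the value per kb of a lymphatic gene to that of a blood vessel gene within each tumor, on a log axis. Grey and blue points are the 24 other Plk2-null and the 12 other p53-/- tumors, bars are medians, and large symbols are the named tumors. Prox1 / Cdh5 and Mmrn1 / Cdh5 are higher in PLK2null-732, PLK2null-733, PLK2null-743 and PLK2null-7763 than in every other tumor, whereas Flt4 / Kdr of these 4 tumors lies within the range of the others.

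Per kb, the order of levels in PLK2null-732 was Ccl21a (57054), Madcam1 (5855), Flt4 (3082), Mmrn1 (2994), Prox1 (538), Lyve1 (375), Pdpn (100), Reln (74.7), Vegfc (62.0) and Vegfd (18.9). In the median of the 24 other Plk2-null tumors Pdpn came first at 404, followed by Vegfc at 93.3 and Flt4 at 49.0, and Mmrn1 came last at 0.899. Flt4 and Mmrn1 in PLK2null-732 were nearly level, and their order turned in PLK2null-733, at 3070 and 3456. Pdpn, Vegfc and Flt4 thus had the highest median levels per kb in these 24 tumors. Lyve1, Flt4, Pdpn, Vegfc and Vegfd were above the value of 3 reads in all 24.

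The other genes of the pathway were taken as whole lists. Over all genes tested, 11.1% were above the range of the 25 and 8.87% below. These shares stand beside the counts here and in the lists below, and 6 of 6 blood endothelial markers were above the same range. Of 9 transcription factors of lymphatic development, 7 were above all 25 other Plk2-null tumors in the 3 claudin-low tumors, namely Sox18, Nr2f2, Foxc2, Gata2, Hhex, Tbx1 and Maf. Sox18 read 9446, 8017 and 9308 in them against at most 575 in the 24, and Nr2f2 read 3840, 4738 and 5046 against at most 1191. Foxc2, needed for lymphatic valves, read 701, 796 and 789.5 against at most 562. Foxc1, also expressed in mammary tumor cells, was below the range at 115, 59.3 and 83.6 against at least 534.6, the value of PLK2null-7763. In p53null-T11, Nr2f2 at 2894 and Foxc2 at 423 were the highest of the 13 p53-/- tumors, while Sox18 was sixth at 361.

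The genes that process and receive VEGF-C were not uniform either. Of 10, the 3 above the range were the receptors Kdr and Nrp2 and the integrin chain Itgb1. Nrp2, the VEGF-C coreceptor, read 24903, 31872 and 26480 against at most 6822 in the 24. Ccbe1, a cofactor of VEGF-C cleavage, read 2.15, 1.20 and 33.3 against a median of 241, and Adamts3, the protease itself, read 8.59, 4.79 and 3.39 against a median of 90.7. In p53null-T11 the related protease gene Adamts14 read 4188, the highest of the 13. Of the other processing genes in the 3 tumors, Furin and Pcsk7 were at 0.776 to 0.976 of the median of the 24, and Pcsk5 and Adamts14 at 0.078 to 0.484. The receptors Kdr and Nrp2 were thus above the range, and Ccbe1 and Adamts3 below the median. Of the 10 genes, 0 were below the range.

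Among 9 of 10 other lymphatic endothelial markers that passed the filter, Stab1, Stab2 and Klhl4 were above the range of the 25 other tumors and Ackr4 was below it. Nts, which encodes neurotensin, read 1665, 683 and 4669 in the 3 tumors and 1007 in PLK2null-7763, against at most 35.7 in the 24. Ackr4, a scavenging receptor for CCL21 and CCL19, read 3.17, 1.34 and 2.99 against at least 10.7. Of 13 tested high endothelial venule and homing genes, 5 were above the range, Sele, Icam1, Vcam1, Itga4 and Cd34. Glycam1, a ligand of L-selectin on high endothelial venules that is also a milk protein gene of mammary epithelium, was at 0 in all 3, which leaves a level of up to 3 reads undetected. Its highest value, 46354 in p53null-5329, stood beside a Ccl21a value of 12.4 and a Madcam1 value of 5.84. Among the 24, however, Glycam1 was highest in PLK2null-1981 at 7028, the tumor also highest of the 24 for Ccl21a (2503) and Madcam1 (71.4). Chst4, a sulfotransferase of these vessels, read 2.86, 2.40 and 7.34 in the 3 tumors, above the value of 3 reads in each, while 23 of the 24 other Plk2-null tumors were at or under it.

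Clec1b, which encodes the podoplanin receptor CLEC-2 of platelets, read 199, 252 and 347 in the 3 tumors against at most 49.0 in the 24. It was 1 of 3 above the range among 8 partners of reelin and podoplanin, and Cd44 and Ezr were below the range. Of 12 tested lymphoid tissue chemokines and cytokines, only Relb was above the range of the 25, beside 11.1% of all genes. Ccr7, the gene of the CCL21 receptor, read 185, 264 and 359 in the 3 tumors against a median of 12.9 in the 24. PLK2null-1981 was the highest of the 24 for Ccr7 at 193, above PLK2null-732. Ccl19, the other CCR7 ligand, which reticular cells make, read 0, 0 and 0.565, so Ccl21a was high with no comparable Ccl19. Cxcl13 read 0.716, 1.20 and 4.52.

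**Figure D3:**
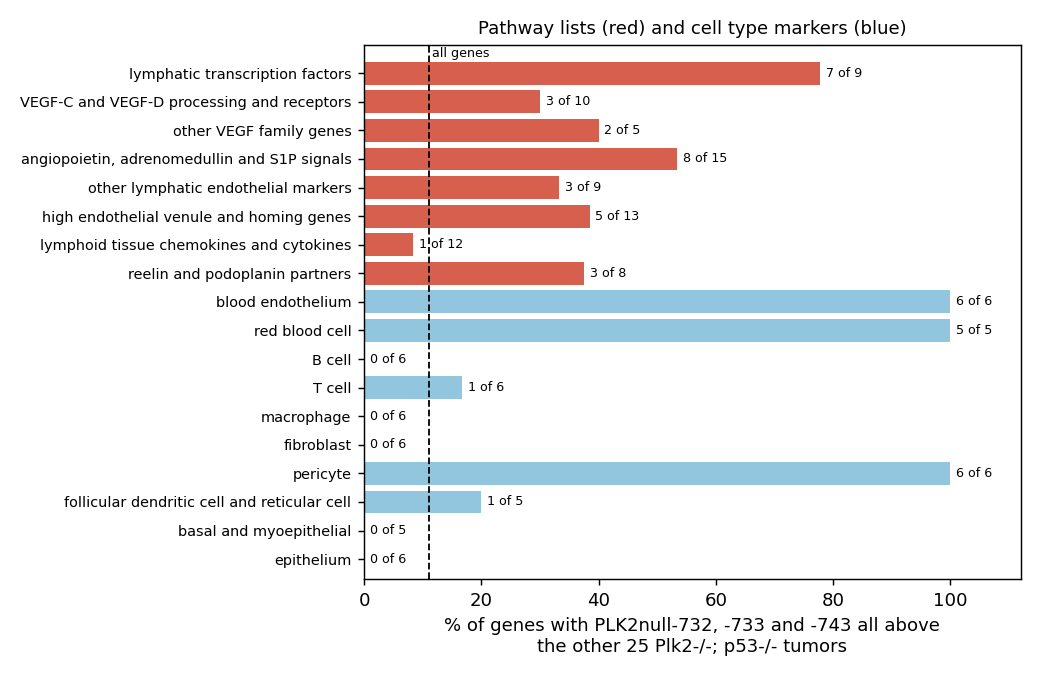
Percent of the tested genes of each list for which PLK2null-732, PLK2null-733 and PLK2null-743 were all above the other 25 Plk2-null tumors, with pathway lists in red and cell type markers in blue. The dashed line is the share over all genes tested, 11.1%. Blood endothelium, red blood cell and pericyte lists reach 6 of 6, 5 of 5 and 6 of 6, whereas B cell, macrophage, fibroblast, basal and epithelial lists are at 0.

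Lymphocyte genes moved in part with the homing genes. The 6 T cell markers summed to 1665 in PLK2null-732, 2378 in PLK2null-733, 2899 in PLK2null-743 and 979 in PLK2null-7763. In the other 24 Plk2-null tumors the median sum was 163 and the highest 1662, in PLK2null-1981. Above the range of the 25 were 1 of 6 T cell markers, Lck, and 0 of 6 B cell markers, beside 11.1% of all genes. Cd79a, a chain of the B cell receptor complex, read 213 in PLK2null-732, 243 in PLK2null-733, 269 in PLK2null-743, 158 in PLK2null-7763 and 1.73 in p53null-T11. The other 24 Plk2-null tumors had a median of 6.42, and PLK2null-1981 was the highest of them at 2625. Ms4a1, which encodes the B cell antigen CD20, read 84.5, 137, 139.5 and 90.5 in the 4 tumors, against a median of 1.36 in the 24 and 452 in PLK2null-1981. PLK2null-1981, also the highest of the 24 for Ccl21a (2503), Madcam1 (71.4) and Lyve1 (134), had Ccl19 at 409, Cxcl13 at 591 and Cr2 at 995. Its Prox1 value was 44.3 and its Mmrn1 value 56.9, against medians of 15.6 and 4.03 in the 24. The follicle gene Cr2 also read 65.2, 89.9, 103 and 72.4 in the 4 tumors, against a median of 1.27 in the 24. The 2 patterns thus differed in part, with Ccl19 and Cxcl13 high beside Ccl21a in PLK2null-1981. In the 4 tumors Ccl21a, Prox1 and Mmrn1 were high, with Ccl19 at most 0.565 and Cxcl13 at most 8.22. PLK2null-1981 was singled out after its values were seen.

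The 2 genotypes were then compared in the 36 tumors that did not choose the genes, 24 Plk2-null and 12 p53-/-. Lyve1 was lower in the Plk2-null tumors, by a log2 fold change of -1.62 (SE 0.48, limma adjusted p = 0.0062), with medians of 10.7 and 62.1. It was the 1 of 10 genes called at an adjusted p of 0.05, and all 10 passed the filter. Over all genes 43.4% were called (7391 of 17029), with 25.1% higher and 18.3% lower in the Plk2-null tumors (4268 and 3123 genes, or 3507 and 3985 with TMM rescaling, which moved the median log2 fold change of all genes from 0.06 to -0.04), so the share of these 10 genes called was below the background. The ranges overlapped, as the 24 reached 134 and the lowest p53-/- tumor read 6.54. The titles of all 13 p53-/- libraries, and of none of the Plk2-null ones, name a separate numbered set, so genotype and library set cannot be told apart.

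Without the library labelled p53null-7435, the adjusted p of Lyve1 was 0.011, and with PLK2null numbers in the 77xx series alone its log2 fold change was -2.20 (adjusted p = 0.0392, limma), in a comparison that called 17.1% of all genes, 6.66% lower. With all 41 tumors the difference was -0.88 (adjusted p = 0.374, limma), where 39.5% of all genes were called, and its adjusted p ran from 0.00161 to 0.374 over all the alternatives. In the comparison that left out only the named tumors, 0 of the 6 macrophage markers were called lower and 1, Cd68, higher. Over all genes in that fit 18.3% were called lower and 25.1% higher. Some macrophages also carry LYVE-1, and their part in the Lyve1 difference was not tested.

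The other 9 genes were not called. Reln had the largest difference, -2.69 (SE 1.33, adjusted p = 0.101), followed by Ccl21a at -0.97 (SE 1.01, adjusted p = 0.456), Vegfd at -0.81 (SE 0.36, adjusted p = 0.0672) and Pdpn at -0.81 (SE 0.48, adjusted p = 0.17). Vegfd passed the threshold with TMM rescaling, at -0.91 (adjusted p = 0.0358, limma), and its adjusted p ran from 0.014 to 0.413 over the alternatives. Flt4 and Vegfc were the 2 genes with positive values, 0.43 (SE 0.29, adjusted p = 0.236) and 0.61 (SE 0.46, adjusted p = 0.291). Prox1, Mmrn1 and Madcam1 had values of -0.55 (SE 0.61), -0.34 (SE 0.63) and -0.18 (SE 0.54), so their errors were as large as or larger than the differences. The median over the 10 genes was -0.68 and over all genes 0.06.

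**Figure D4:**
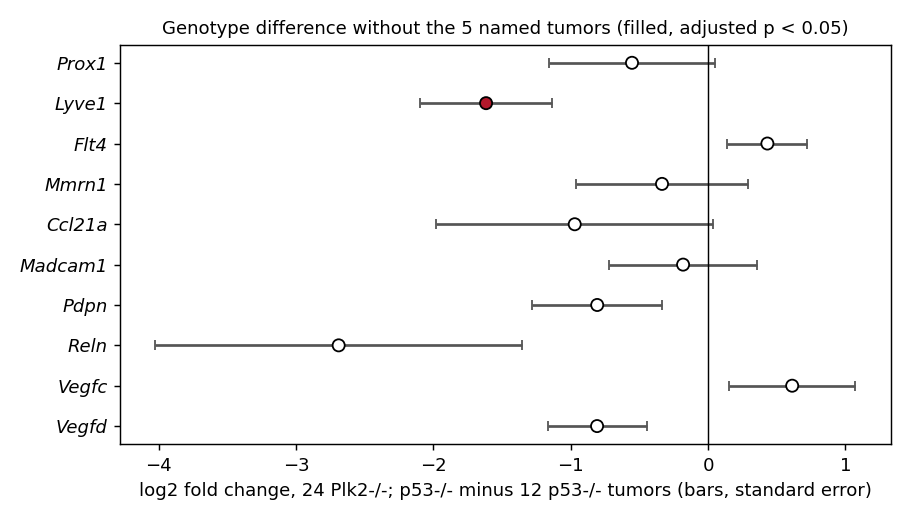
Log2 fold change of each gene between 24 Plk2-null and 12 p53-/- tumors without the 5 named tumors, with bars for the standard error from limma. Negative values are lower in Plk2-null tumors, and the filled point marks Lyve1 (-1.62), the gene with an adjusted p under 0.05.

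In the same comparison, 0 of 9 lymphatic transcription factors and 0 of 8 tested lymphatic endothelial markers were called, beside 43.4% of all genes. At an unadjusted p under 0.05 Nfatc1 was the exception among both lists (p = 0.0328, limma). Of 10 genes that process and receive VEGF-C, 4 were higher in the Plk2-null tumors and 0 lower, beside 25.1% higher and 18.3% lower of all genes. The share called in this list was thus near the 43.4% called over all genes. The 4 were Ccbe1 (2.16, adjusted p = 0.0248), Adamts14 (1.77, adjusted p = 0.000852), Nrp2 (1.09, adjusted p = 0.0158) and Itgb1 (0.53, adjusted p = 0.0329). Of 5 other VEGF family genes, 2 were higher and 0 lower, beside the same shares. Vegfa, the ligand of VEGFR-2, was higher by 1.31 (adjusted p = 0.00227) and Flt1 by 0.89 (adjusted p = 0.0076). All of these are log2 fold changes from limma.

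Of 15 angiopoietin, adrenomedullin and sphingosine phosphate genes, 3 were lower and 0 higher, where 18.3% of all genes were lower and 25.1% higher (23.4 and 20.6% with TMM rescaling), and the same shares stand beside the counts that follow. Svep1, a matrix protein needed for lymphatic sprouting, fell by 1.22 on the log2 scale (adjusted p = 0.0468, limma), and the adrenomedullin receptor subunit Ramp2 fell by 0.59 (adjusted p = 0.0429, limma). Of 12 tested homing genes, Itga4 (1.21) and Enpp2 (1.90) were higher and Icam1 (-1.69) and Cd34 (-0.85) lower. Of 12 tested lymphoid chemokine and cytokine genes, Ccr7 (-1.26), Relb (-0.60) and Ltb were lower and Il7r (1.07) higher. Of 7 tested reelin and podoplanin partners, 4 were higher, among them the reelin receptor Lrp8 (1.76, adjusted p = 1.87e-06, limma), and 0 lower. Beside these, 5 of 5 red blood cell markers and 4 of 5 basal markers were lower in the Plk2-null tumors, 3 of 6 T cell markers were lower and 0 higher, and their part in the differences was not tested.

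How the genes vary in ordinary tumors was described by Pearson's r of log2(value + 1) over the 36 tumors, whose points share the normalization and the 2 genotypes. The genes most like Flt4 were the blood endothelial genes Cdh5 (r = 0.87), Emcn (0.86) and Ccm2l (0.85). The genes most like Prox1 were Slc52a3 (0.73), the endothelial lectin gene Clec1a (0.73) and Cd36 (0.72). Those most like Lyve1 were Cadm3 (0.78), Pi16 (0.73) and Nnmt (0.72), and those most like Vegfd were Itga7 (0.77), Mrgprf (0.76) and Cdc42ep2 (0.75). Vegfc was nearest to Csmd1 (0.70), Bmp2 (0.69) and Grik2 (0.69). Of the 6 genes described in this way, Flt4 had the closest neighbours.

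Ccl21a was nearest to the lymphocyte phosphatase gene Dusp2 (0.68), and the neurotrophin gene Ntf3 (0.61) was also among its nearest genes. Without PLK2null-1981 the r with Dusp2 stayed at 0.68. Over all 41 tumors r rose to 0.92 for Prox1 with Clec1a and 0.97 for Flt4 with Cdh5. It fell to 0.52 for Prox1 with Slc52a3, 0.35 for Ccl21a with Ntf3 and 0.54 for Lyve1 with Pi16. The values over 41 rest in part on the named tumors.

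Among the genes themselves, r over the 36 tumors ran from -0.30 to 0.71, and r over all 41 rests on the values that chose the genes. Prox1 and Madcam1 had r = 0.03 over 36 tumors against 0.76 over 41, and Flt4 and Ccl21a 0.08 against 0.74. Prox1 and Mmrn1 had 0.58 against 0.89, and Prox1 and Reln 0.61 against 0.60. Over the 36 tumors r was also 0.58 for Mmrn1 with Ccl21a, 0.52 for Prox1 with Ccl21a and 0.51 for Flt4 with Mmrn1. The highest pair over the 36 was Pdpn with Reln (0.71, against 0.41 over 41), followed by Lyve1 with Vegfd (0.63) and Pdpn with Vegfd (0.62). Pdpn and Reln were also related to Krt5 (0.76 and 0.69), a gene added after its values were seen. PLK2null-1963, PLK2null-1964, PLK2null-1965 and PLK2null-7747 were high for all 3 genes, with Pdpn at 3605 to 4324, Reln at 3625 to 10347 and Krt5 at 8000 to 36680. These tumors may be related, and r without them was not computed.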

How the data were processed

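The authors aligned paired reads of 41 tumors, 1 library each, to mm10 with STAR 2.7.6a, and estimated gene counts with Salmon 1.4.0 (versions from the submitters' processing notes). They deposited a linear signal, the estimated counts scaled so that the upper quartile of nonzero genes is 1000 in each tumor. Reads were not recovered as whole numbers (77.8 to 80.5% of values within 0.1 of a read), so no count model was used. Genotypes came from the sample labels and tumor class from the paper, in part from a plot of it. The genes and lists were chosen with earlier results of these data known. Named genes were all 10 members, genes of the lists, and for 6 members the 3 genes with the highest r. For Ccl21a 1 of them is not reported here. Genotypes were compared by limma 3.58.1 (R 4.3.3) on log2(value + 1), keeping genes whose mean reached 10, without the 5 named tumors, with Benjamini-Hochberg adjustment over all genes. A gene was above the range where PLK2null-732, PLK2null-733 and PLK2null-743 were all above the 25 other Plk2-null tumors. On simulated data the fit called 178 of 195 changed genes and 7 unchanged ones among 16704 genes. The simulated tumors were drawn independently with large planted changes, so these rates need not hold for related tumors or smaller differences. Positions and lengths are from GENCODE vM21 (GRCm38) and promoters from RefSeq (GRCm38.p6). The floor of 3 reads (1.16 to 2.45 in value) covers counting error only. Alternatives were other pseudocounts, filters, scalings and sets of tumors. Samples are single tumors, so p-values measure the spread between tumors, some of which may be related.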

Additional observations from a re-analysis of the deposited data

How the results depend on the processing

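The number of genes called between the genotypes was 7391 and fell to 2901 with only the 77xx-numbered Plk2-null tumors, a fit with fewer samples. The split of calls was 4268 higher and 3123 lower as deposited, but 3507 and 3985 with TMM rescaling. The number of genes above the range was 1908 and fell to 1194 with PLK2null-7763 added to the high tumors, an alternative chosen after seeing the data. With all 41 tumors the sign turned for Prox1 (0.65), Mmrn1 (1.26), Ccl21a (0.88) and Madcam1 (1.39), and with the 77xx-numbered tumors for Mmrn1 (0.93) and Madcam1 (0.50), none of them called in any fit. No paired analysis was possible because the groups share no replicate number. A mean of at least 50 left out Prox1, Lyve1, Mmrn1, Madcam1 and Vegfd.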
